A study of Mus musculus with 12 samples.

Results

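The 40 genes described here carry cells through G2 and mitosis: kinases and cyclins that open mitosis, spindle checkpoint and kinetochore proteins, the chromosomal passenger complex, spindle motors, cytokinesis factors and genes of cohesion and anaphase. They were taken from a list of names, and each was read from the brightest probe set annotated to it alone. Of the 40, 39 were measured among 19938 genes on the array, and the level of Ccnb1, the main mitotic B-type cyclin, was not analysed here for want of a probe set annotated to it alone. Sgol1 was measured under its current name Sgo1, and Top2a alone had more than 1 probe set. All 39 lay above the 20th percentile of mean level, the limit for testing that left 15950 genes, and all 39 also lay above the 40th.

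Entry into mitosis is driven by Cdk1 bound to a B-type cyclin, which Cdc25 phosphatases activate and Plk1 and Aurora kinases reinforce. The spindle checkpoint holds the anaphase-promoting complex in check until every kinetochore is attached, and that complex then marks securin, cyclin B and also Geminin for destruction. Transcripts of this group rise late in the cell cycle in dividing cells, and embryonic stem (ES) cells divide fast, so the group is often read as a sign of how many cells are cycling.

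Expression was measured on 12 arrays, 1 per sample, in mouse embryoid bodies, aggregates in which ES cells differentiate. All samples came from the A2lox ES line, background 129P2/OlaHsd, in which doxycycline (dox) switches on an inserted transgene, and dox was used at 0.5 µg/ml. In the Geminin knockdown line the transgene makes microRNAs against Geminin transcripts. Dox was given from day 0 and bodies were collected on day 4, with 3 dox arrays and 3 control arrays. In the Geminin overexpression line the transgene makes Geminin and dox was given from day 3. Its bodies were collected on day 5 (replicates 1 and 2, each with 1 dox and 1 control array) or on day 4 (replicate 3, 1 dox and 1 control array). ES cells had grown on irradiated feeder fibroblasts and were separated from them before aggregation. Whether each line is 1 clone, and whether replicates came from separate cultures, is not given in the labels. The spread behind every p-value is therefore that of these arrays and could be technical.

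Levels are log2(intensity + 1) after quantile normalization, so a difference of 1 is a doubling of intensity. The array means of the deposited intensities lay between 677.3 and 696.6, and precision is set by how few arrays each group has. A gene is called where its limma p, adjusted by Benjamini-Hochberg over the 15950 genes tested, is under 0.05. Gmnn, the targeted Geminin gene, stood at 9.66, 9.74 and 9.63 in knockdown dox arrays, against 10.33, 10.15 and 10.05 in knockdown controls. In the overexpression line it stood at 11.38 and 10.83 in day 5 dox arrays against 10.29 and 10.15 in day 5 controls, and at 11.04 in the day 4 dox array against 10.35 in its control. The groups did not overlap in either line. The fitted differences were -0.50 ± 0.14 (SE) in the knockdown line and 0.82 ± 0.14 in the overexpression line, neither of which was called (limma adjusted p = 0.965 and 0.922), though the unadjusted p was under 0.05 in both. The sources do not say if transgene RNA is also read by this probe set. The summed intensity of 9 pluripotency markers ran from 28031 to 32915 in the knockdown line and from 20725 to 27528 in the overexpression line. In bulk samples such as these, fewer cells of a type and less RNA per cell cannot be told apart.

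Promoters of this group are known for a cell cycle genes homology region (CHR), an element read by the MuvB complexes, often near CCAAT boxes that bind NF-Y. Promoters, from 250 bases before the start of transcription to 50 after it, were taken from RefSeq (GRCm38.p6) for 33 of the 40 genes, Ccnb1 included, 35 promoters in all since 2 genes have 2. Aurkb, Spc24, Incenp, Kif20a, Tpx2, Cdc25c and Foxm1 had no match. TTTGAA, searched on both strands, was found in 68.6% of the members' promoters, against 17.9% of all 32851 promoters of that length. The variants TTTAAA and TTCGAA, which read the same on both strands, were in 25.7% and 14.3% of the members' promoters, against 13.2% and 1.56% of all. At least 1 of these 3 CHR forms was in 85.7% of the members' promoters and 28.8% of all, and CCAAT, on either strand, in 77.1% and 37.4%. Of the E2F forms TTTCCCGC and TTTGGCGC, neither was in the members' promoters, against 1.07% and 0.514% of all. A match is a description of letters and was not tested for binding.

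Windows of 180 bases, from 150 before the start to the 30th transcribed base, are shown 5′ to 3′ on the gene's strand for 5 genes on which the results below turn. Capitals mark the CHR forms and the CCAAT boxes, which in these windows all lie on the opposite strand and so read ATTGG. Cdk1 is the central kinase, Cdc25b, Kif23 and Mad2l1 are among the genes furthest apart between days, and Cdca8 varied least over the arrays.
Cdk1 (chr10:69352883-69353062, minus strand): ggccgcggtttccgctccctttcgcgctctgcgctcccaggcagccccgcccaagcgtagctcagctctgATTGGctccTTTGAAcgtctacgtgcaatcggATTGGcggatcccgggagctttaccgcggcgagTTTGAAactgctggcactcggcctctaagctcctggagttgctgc
Cdc25b (chr2:131186798-131186977, plus strand): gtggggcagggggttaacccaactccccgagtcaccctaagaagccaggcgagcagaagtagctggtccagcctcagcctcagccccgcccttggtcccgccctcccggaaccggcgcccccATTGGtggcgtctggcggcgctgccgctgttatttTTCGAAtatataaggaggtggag
Kif23 (chr9:61946770-61946949, minus strand): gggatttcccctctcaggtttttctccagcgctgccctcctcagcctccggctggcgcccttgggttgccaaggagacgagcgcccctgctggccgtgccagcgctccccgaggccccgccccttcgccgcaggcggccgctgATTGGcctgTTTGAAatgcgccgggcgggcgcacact
Mad2l1 (chr6:66535071-66535250, plus strand): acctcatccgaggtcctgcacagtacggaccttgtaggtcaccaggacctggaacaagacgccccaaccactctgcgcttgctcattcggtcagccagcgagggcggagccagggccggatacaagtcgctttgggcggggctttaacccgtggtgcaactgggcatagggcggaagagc
Cdca8 (chr4:124936888-124937067, minus strand): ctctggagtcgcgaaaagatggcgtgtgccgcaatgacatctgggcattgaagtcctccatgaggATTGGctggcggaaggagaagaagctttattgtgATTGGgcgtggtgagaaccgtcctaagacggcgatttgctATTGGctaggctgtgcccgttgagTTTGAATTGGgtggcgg
In Cdk1, TTTGAA began at -71 and again at -15 from the start, with CCAAT boxes at -80 and -48 inside the window. Cdc25b held the rarer TTCGAA at 8 bases into the transcript and a CCAAT box at -28, and Kif23 held TTTGAA at 3 and a CCAAT box at -7. In Cdca8, TTTGAA at 14 overlapped a CCAAT box at 19 by the letter A, and 3 more CCAAT boxes lay upstream. None of these letters is in the Mad2l1 window or in the rest of its 300 bases, which says nothing of the factors themselves. Nek2, Nuf2, Pttg1 and Melk also lacked every CHR form in the 300 bases.

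Over the 12 arrays the group varied little. The SD of a member's level had a median of 0.142, against 0.179 over all genes tested. These were not matched for level: all 39 members lay above the 40th percentile, while the genes tested reach down to the 20th. The most variable were Spc24 (SD 0.242), a subunit of the kinetochore's Ndc80 complex, Espl1 (0.241), the separase that cleaves cohesin, Hmmr (0.227), a spindle-associated hyaluronan receptor, and Ect2 (0.21), the exchange factor that activates RhoA for cytokinesis. The least variable were Cdca8 (0.054), the borealin subunit of the passenger complex, Tpx2 (0.08), an activator of Aurora A on the spindle, Cenpf (0.082), a kinetochore protein, and Pttg1 (0.085), the securin that inhibits separase. Cdca8 lay between 10.14 and 10.27 in knockdown dox arrays and between 10.23 and 10.31 in knockdown controls. In the overexpression line it lay between 10.16 and 10.22 with dox and between 10.22 and 10.32 without.

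**Figure D1:**
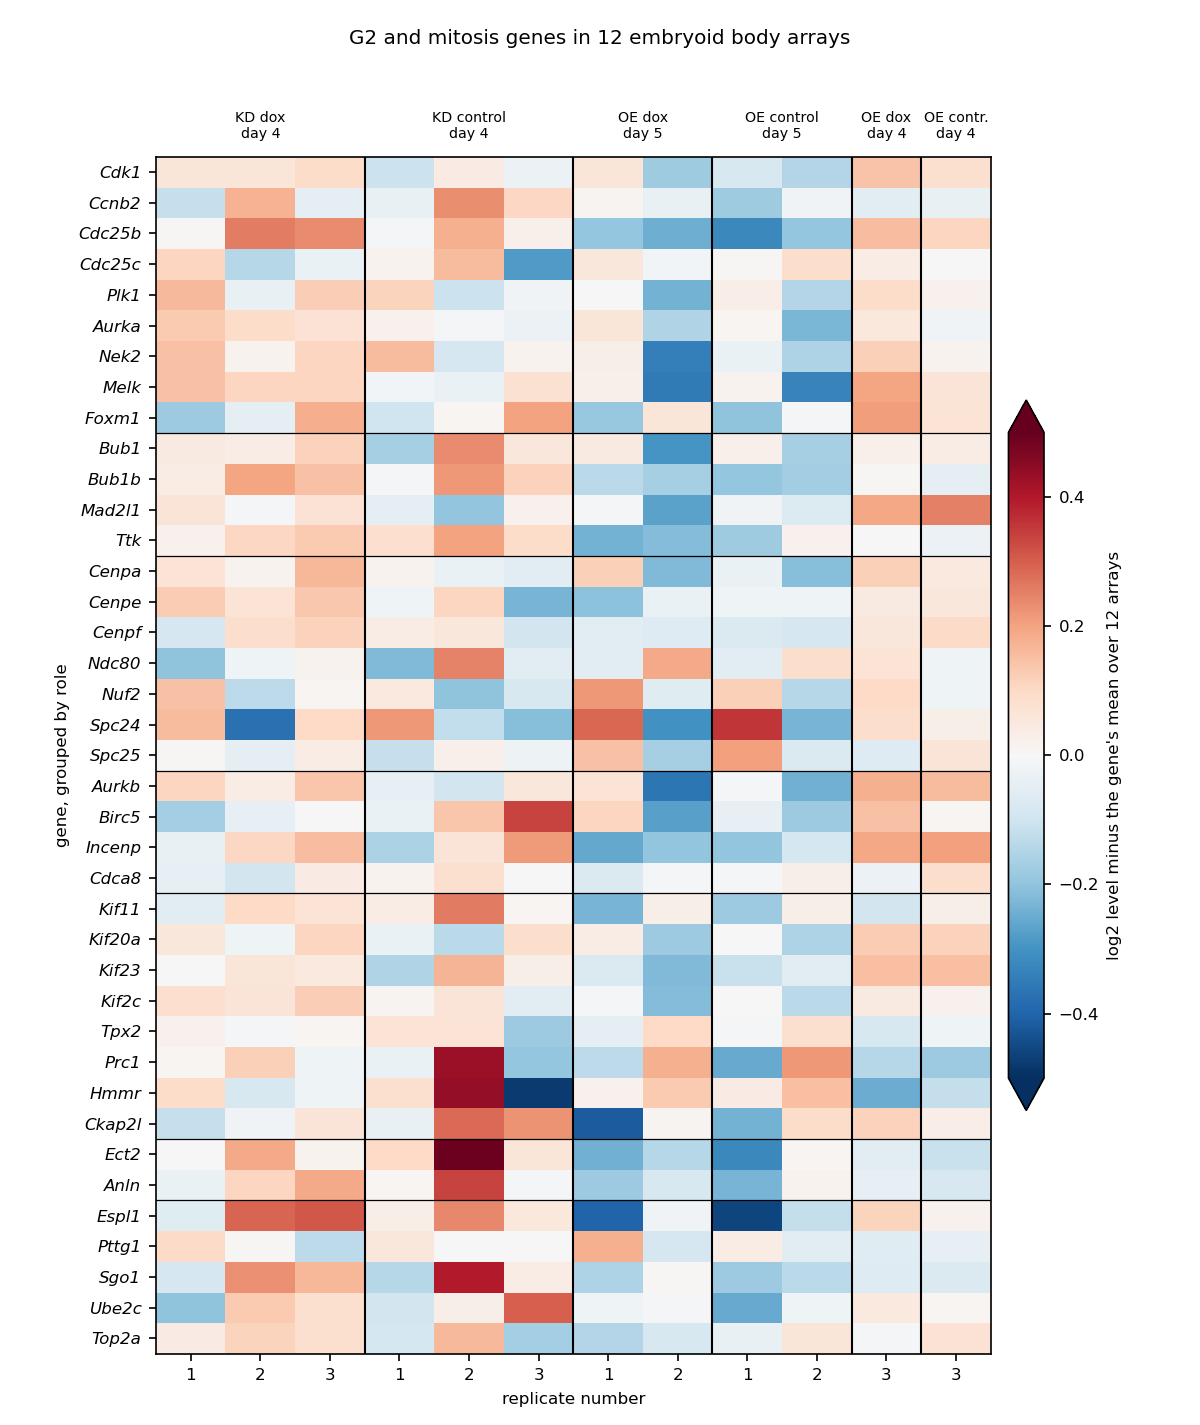
Each cell gives the log2 level of 1 gene on 1 array minus that gene's mean over the 12 arrays, with genes grouped by role down the page and arrays grouped by line, day and dox across it (KD, knockdown line; OE, overexpression line). The reddest cells are those of Ect2, Hmmr and Prc1 in replicate 2 of the knockdown controls (levels of 11.64, 10.27 and 10.92), and within the overexpression line Cdc25b and Incenp are blue in all 4 day 5 columns and red in both day 4 columns.

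The knockdown comparison asks whether mitotic transcripts differ by day 4 when dox is given to lower Geminin. None of the 39 genes was called with dox (0 of 39; 0.00627% of all genes tested), and none had an unadjusted limma p under 0.05 (3.76% of all genes, 2.17% higher and 1.59% lower). The median log2 difference was 0.02 in the group and 0.01 over all genes, and single values lay between -0.22 and 0.16. For 39 of 39 genes the 95% interval of the difference stayed within 1.5-fold of no change, as it did for 82.2% of all genes. By sign, 25 were higher and 14 lower with dox (52.7% of all genes were higher and 47.3% lower), a split that became 36 and 3 when arrays were centred on their medians, where the group's median was 0.14 and that of all genes 0.07.

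Among the genes of mitotic entry, 7 of 9 were higher with dox and 2 lower (Ccnb2, a B-type cyclin, and Foxm1, the transcription factor that drives many genes of this group). Cdk1 stood at 11.04, 11.04 and 11.07 in knockdown dox arrays, against 10.87, 11.02 and 10.95 in controls, a difference of 0.10 ± 0.09 (SE; limma adjusted p = 0.965). The mitotic kinase Aurka stood at 10.83, 10.79 and 10.77 in dox arrays, against 10.72, 10.69 and 10.67 in controls, also 0.10 ± 0.09 (adjusted p = 0.965). Every dox array was above every control for these 2 kinases, for the kinase Melk and for the microtubule depolymerase Kif2c. That is 4 of 39 genes, with 4.97% of all genes placed so, and 0 of 39 genes had every dox array below every control (3.25% of all). The margins were narrow: the nearest dox and control values of Kif2c were both 10.72 after rounding. Genes with every dox array above were 3 with values as deposited (3.02% of all) and 6 with arrays centred on their medians (6.98%). Plk1, the polo kinase, reached 11.82, 11.62 and 11.78 with dox and 11.77, 11.55 and 11.64 without (0.09 ± 0.11), groups that overlapped.

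In the spindle checkpoint, Mad2l1, which restrains the anaphase-promoting complex, had a difference of 0.11 ± 0.10, and Bub1, a checkpoint kinase, 0.03 ± 0.12. The highest difference of the group was that of Cenpe, the kinetochore motor that carries chromosomes to the spindle equator. Cenpe stood at 9.38, 9.32 and 9.39 in dox arrays, against 9.23, 9.36 and 9.02 in controls (0.16 ± 0.10; limma adjusted p = 0.965). Its groups overlapped through control replicate 2. Ndc80, the complex's namesake, had -0.06 ± 0.13. The lowest was that of Birc5, the survivin subunit of the passenger complex, at 9.45, 9.58 and 9.62 in dox arrays, against 9.59, 9.76 and 9.96 in controls (-0.22 ± 0.13; limma adjusted p = 0.965). Here too the groups overlapped, the highest value being control replicate 3. The spindle protein Ckap2l had -0.18 ± 0.14 and Ect2 -0.14 ± 0.13, while Top2a, the topoisomerase that untangles sister chromatids, had 0.11 ± 0.10. The motor Kif11, Tpx2, Espl1, Pttg1 and Ube2c, the ubiquitin-conjugating enzyme of the anaphase-promoting complex, lay between -0.08 and 0.07.

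Taken pair by pair with arrays of equal number, dox was above control in every pair for 11 genes (19.5% of all genes) and below in every pair for 5 (12.2%). The 11 were Aurka, Aurkb, Cdc25b, Cdk1, Cenpa, Kif20a, Kif2c, Mad2l1, Melk, Nuf2 and Plk1, and the 5 were Birc5, Ccnb2, Ckap2l, Ect2 and Foxm1. The group's median in pairs 1, 2 and 3 was 0.04, -0.05 and 0.08. Control replicate 2 weighed on these values: without it the median difference was 0.07 in place of 0.02, and Cenpe (0.24) and Top2a (0.21) had an unadjusted p under 0.05, with a limma adjusted p of 0.797 each. Without control replicate 1, Birc5 was at -0.31 with an unadjusted p under 0.05 (limma adjusted p = 0.825). The main fit does not pair arrays. With a replicate block within each line, Birc5 and Ckap2l had an unadjusted p under 0.05 (limma adjusted p = 0.367 and 0.411). So did 1941 of all genes tested. Of 116 further G2 and mitosis genes tested, 85 were higher and 31 lower (52.7% and 47.3% of all genes). Among them 1 had an unadjusted limma p under 0.05 (3.76% of all genes) and 0 were called. That gene was Mad1l1, a kinetochore anchor of Mad2 (0.19 ± 0.08, adjusted p = 0.965). The next smallest p were those of Cenpc1, a centromere protein (0.24 ± 0.11), and Cdc25a (0.15 ± 0.08). Beside these values, 8 markers of non-cycling cells had 3 members higher and 5 lower with dox (median -0.05), with summed intensities of 5370 to 6331 with dox and 5339 to 8110 without. All 7 primitive streak markers were higher (median 0.78, 1 with an unadjusted p under 0.05), summing to 2014 to 6607 with dox and 1099 to 3809 without. All 8 primitive and visceral endoderm markers were lower (median -0.34), summing to 2464 to 8260 with dox and 3497 to 11412 without, and 7 of 9 pluripotency markers were lower (median -0.18, 1 with an unadjusted p under 0.05). Their part in the values above was not tested.

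With dox given to raise Geminin, the group again held close to no change. In the overexpression line 0 of 39 genes were called (0.00627% of all genes tested) and 0 had an unadjusted limma p under 0.05 (0.934% of all, 0.345% higher and 0.589% lower). Differences ran from -0.11 to 0.10, with a median of 0.00 against 0.01 over all genes, and for 39 of 39 genes the 95% interval stayed within 1.5-fold (88.5% of all). By sign 18 were higher and 21 lower (56.7% of all genes were higher and 43.3% lower), or 22 and 17 with the values as deposited (36% of all genes lower). Top2a, the lowest, stood at 11.75 and 11.82 in day 5 dox arrays against 11.86 and 11.96 in day 5 controls, and at 11.89 in the day 4 dox array against 11.97 in its control (-0.11 ± 0.10; limma adjusted p = 1). Nuf2, a further Ndc80 complex subunit and the highest, stood at 10.42 and 10.14 in day 5 dox arrays against 10.32 and 10.06 in controls, and at 10.30 against 10.18 on day 4 (0.10 ± 0.12; limma adjusted p = 1). Dox lay on 1 side of control in every pair for both genes, while the dox and control ranges overlapped.

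Among the remaining named genes, the checkpoint kinase Ttk had -0.09 ± 0.09 and Cdca8 -0.07 ± 0.08, while Ube2c had 0.09 ± 0.13 and Aurka 0.06 ± 0.09. Cdk1 had 0.06 ± 0.09, Plk1 -0.02 ± 0.11, Foxm1 0.07 ± 0.13, Bub1 -0.04 ± 0.12, Mad2l1 -0.08 ± 0.10 and Kif11 -0.06 ± 0.11. In every pair dox was above control for 7 genes (Aurka, Bub1b, Espl1, Foxm1, Nuf2, Sgo1 and Ube2c; 16.6% of all genes) and below for 7 (Cdca8, Cenpe, Hmmr, Incenp, Kif11, Spc25 and Top2a; 10.5%). The pair medians were 0.03 and -0.03 in the day 5 pairs of replicates 1 and 2 and 0.03 in the day 4 pair, which has no replicate of its own. Of the 116 further genes, 58 were higher and 58 lower (56.7% and 43.3% of all genes), with 0 at an unadjusted limma p under 0.05 (0.934% of all). The smallest p there were those of Anapc10, a subunit of the anaphase-promoting complex (-0.31 ± 0.16), Stag2, a cohesin subunit (-0.14 ± 0.09), and Cenpn, a centromere protein (0.14 ± 0.09). Of 8 non-cycling markers, 2 were higher and 6 lower (median -0.05), with summed intensities of 5979 to 7632 with dox and 6329 to 8104 without, and their part was not tested.

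**Figure D2:**
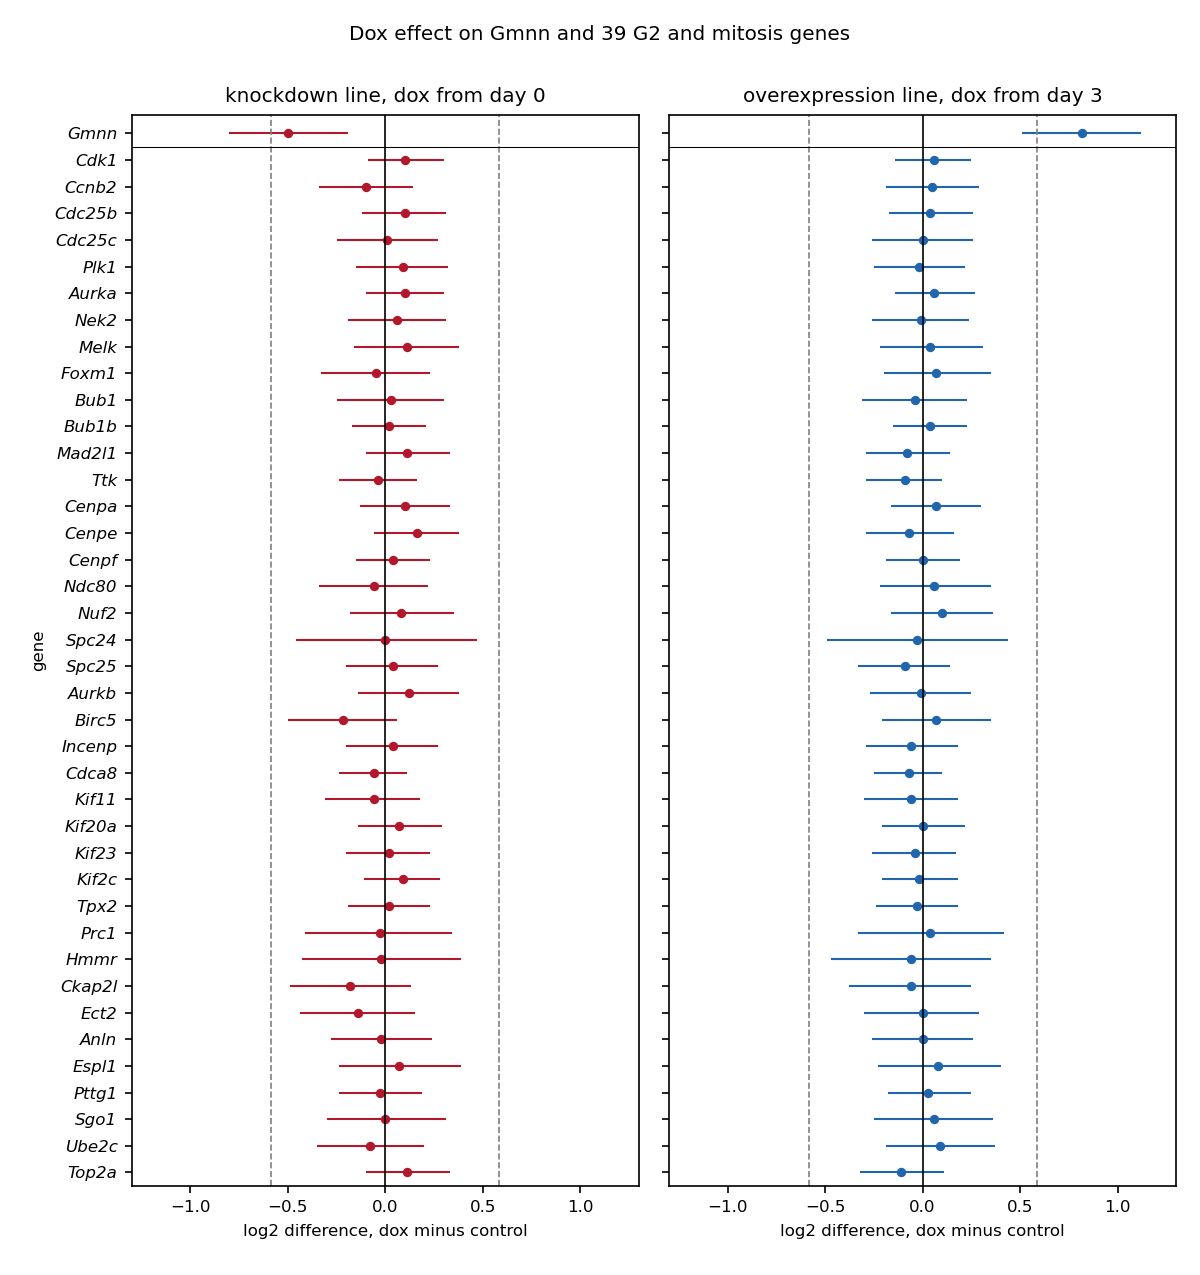
Points are the fitted log2 difference of dox minus control and bars its 95% interval, in the knockdown line on the left and the overexpression line on the right, for Gmnn and the 39 genes by role. Dashed lines mark 1.5-fold (0.585 on the log2 scale): every gene's bar lies inside them in both panels except that of Gmnn, at -0.50 and 0.82.

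Dox was given from day 0 with collection on day 4 in the knockdown line. In the overexpression line it was given from day 3 with collection on day 4 or 5. Line, exposure and collection day therefore cannot be told apart here. The knockdown effect minus the overexpression effect compares the dox responses of the lines as treated. It was called for 0 of 39 genes (0% of all genes tested), 0 had an unadjusted limma p under 0.05 (2.13% of all, 1.13% above and 0.997% below 0), and the median was 0.03. Birc5 had the widest difference, -0.29 ± 0.18 (limma adjusted p = 1), followed by Cenpe at 0.23 ± 0.14, Top2a at 0.22 ± 0.14, Mad2l1 at 0.19 ± 0.14, Ube2c at -0.17 ± 0.18 and Ccnb2 at -0.15 ± 0.15. Of 39 intervals 35 stayed within 1.5-fold (58.2% of all genes), and 4 reached beyond it. Of the 116 further genes 3 had an unadjusted p under 0.05, all above 0: Stag2 (0.31 ± 0.13), the proliferation antigen gene Mki67 (0.34 ± 0.15) and Anapc10 (0.52 ± 0.23), none of which was called (limma adjusted p = 1). Gmnn itself had -1.32 ± 0.19 (adjusted p = 0.614). Without day 5 dox replicate 2, Birc5 was at -0.41 with an unadjusted p under 0.05 (limma adjusted p = 1). Without knockdown control replicate 2, Cenpe was at 0.31 and Top2a at 0.32, both with an unadjusted p under 0.05 and a limma adjusted p of 0.999. Signs were 24 above 0 and 15 below (50.1% and 49.9% of all genes), or 33 and 6 with arrays centred on their medians. With that centring 36.7% of all genes were below 0 and their median was 0.07, against 0.15 in the group.

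Between days most of the group lay on 1 side. In the overexpression line 32 of 39 genes were lower on day 5 than on day 4 (50.2% of all genes were lower), with a median difference of -0.12 against 0.00 over all genes. None was called (0 of 39; 0.558% of all genes), 6 had an unadjusted limma p under 0.05 and a lower level on day 5 (6.68% of all genes), and 0 with a higher one (7.52%). The 95% interval stayed within 1.5-fold for 35 of 39 genes (72.2% of all). In this line day and replicate cannot be told apart: the day 4 pair is replicate 3 and the day 5 pairs are replicates 1 and 2. Lower levels on day 5 were seen in 8 of 9 entry genes, 4 of 4 checkpoint genes, 5 of 7 kinetochore genes, 4 of 4 passenger complex genes, 5 of 8 spindle genes, 2 of 2 cytokinesis genes and 4 of 5 genes of cohesion and anaphase. Gmnn had -0.03 ± 0.15, a difference whose sign turned with median centring (0.02).

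The phosphatase Cdc25b, an activator of Cdk1, had the smallest p. It stood at 8.47 and 8.42 in day 5 dox arrays and at 8.34 and 8.47 in day 5 controls, against 8.82 and 8.77 in the day 4 dox and control arrays (-0.37 ± 0.10; limma adjusted p = 0.137). All 4 day 5 values lay below both day 4 values. Incenp, the scaffold of the passenger complex, stood at 9.60 and 9.66 with dox and 9.66 and 9.77 without on day 5, against 10.05 and 10.06 on day 4 (-0.38 ± 0.11; limma adjusted p = 0.161). Mad2l1 stood at 11.52 and 11.26 with dox and 11.51 and 11.46 without on day 5, against 11.72 and 11.78 on day 4 (-0.31 ± 0.10; limma adjusted p = 0.194). Neither gene's days overlapped. In day 5 replicates 2 and 1 taken alone, Cdc25b lay at -0.35 and -0.38 from day 4, Incenp at -0.33 and -0.42 and Mad2l1 at -0.39 and -0.24.

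Kif23, a motor of the central spindle, stood at 10.66 and 10.51 with dox and 10.62 and 10.68 without on day 5, against 10.88 in both day 4 arrays (-0.26 ± 0.10; limma adjusted p = 0.28). Aurkb, the passenger complex kinase, stood at 10.58 and 10.15 with dox and 10.50 and 10.27 without, against 10.69 and 10.67 (-0.31 ± 0.12; limma adjusted p = 0.296). Melk stood at 10.73 and 10.35 with dox and 10.72 and 10.37 without, against 10.90 and 10.77 (-0.29 ± 0.13; limma adjusted p = 0.334). For Aurkb and Melk it was day 5 replicate 2 that lay furthest down, -0.47 and -0.48 from day 4, while replicate 1 lay at -0.14 and -0.11.

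In all, 15 of 39 genes (38.5%; 15.1% of all genes) had every day 5 array below both day 4 arrays: Cdk1, Cdc25b, Melk and Foxm1 of the entry genes, Bub1b and Mad2l1 of the checkpoint, Cenpe and Cenpf of the kinetochore, Aurkb and Incenp of the passenger complex, Kif20a, Kif23 and Kif2c of the spindle, and Espl1 and Ube2c of anaphase. Hmmr alone had every day 5 array above (1 of 39; 15.4% of all), at 9.85 and 9.96 with dox and 9.87 and 9.98 without, against 9.58 and 9.71 on day 4 (0.27 ± 0.20; limma adjusted p = 0.594). Prc1, which bundles central spindle microtubules, followed at 0.16 ± 0.18 and Tpx2 at 0.08 ± 0.10, but Prc1 was at -0.03 without day 5 replicate 2. Ccnb2, Cdc25c, Cdca8, Kif11, Anln, Pttg1, Sgo1 and the Ndc80 complex genes Ndc80, Nuf2, Spc24 and Spc25 lay within 0.07 of no difference. Some of these were means of values with opposite signs in day 5 replicates 1 and 2. Nuf2, Spc24 and Spc25 lay at 0.13, 0.26 and 0.18 from day 4 in replicate 1. In replicate 2 they lay at -0.14, -0.33 and -0.12. Both arrays of day 5 replicate 1 lay below both day 4 arrays for 23 genes and above for 5 (29.5% and 29.3% of all genes). Those of day 5 replicate 2 lay below for 24 and above for 4 (31% and 32.1%).

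The size of this shift depended on the scaling. With arrays centred on their medians the group's median was -0.06 (all genes 0.03), 27 genes were lower and 12 higher, 6 of 39 had every day 5 array below day 4 (15.4%; 8.94% of all genes), and Mad2l1 alone had an unadjusted p under 0.05. With values as deposited the median was -0.09 (all genes 0.00), 11 of 39 genes had every day 5 array below day 4 (28.2%; 12.4% of all) and 2 had every one above (15.9% of all). Relative to the median of all genes the group stood at -0.12, -0.09 and -0.09 in the quantile, deposited and median-centred values. Without the day 4 control array 2 genes kept an unadjusted p under 0.05 (Cdc25b and Incenp), and without the day 4 dox array 1 (Cdc25b). With array weights, 8 genes were called lower on day 5 (Cdc25b, Mad2l1, Incenp, Aurkb, Melk, Kif23, Cdk1 and Kif20a; limma adjusted p from 0.00814 to 0.0468). Over all genes 16.1% were called in that fit, counting both directions, and the share called lower was not taken by itself. That fit gave each of the 2 day 4 arrays, which alone set their baseline, a weight of 5.57, against 0.41 to 1.23 for the others.

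Of the 116 further G2 and mitosis genes, 80 were lower on day 5 and 36 higher (median -0.08), against 50.2% and 49.8% of all genes. With an unadjusted limma p under 0.05 were 16 lower and 2 higher (6.68% and 7.52% of all genes), and 0 were called. Among the lower were Cdc25a, a phosphatase of Cdk complexes (-0.31 ± 0.08, adjusted p = 0.119), E2f4, a repressor E2F of the DREAM complex (-0.51 ± 0.14, 0.135), Zw10, a checkpoint protein (-0.29 ± 0.09, 0.168), and Ccna2, the cyclin of S phase and G2 (-0.20 ± 0.08, 0.303). The 2 higher were Ska2, of the kinetochore's Ska complex (0.39 ± 0.08, 0.0761), and Psrc1, a microtubule protein (0.33 ± 0.12, 0.246). All 4 day 5 arrays were below day 4 for 41 of 116 (35.3%, against 15.1% of all genes). Markers of other cells differed between days beside these values. All 8 primitive and visceral endoderm markers were higher on day 5 (median 1.07, 3 with an unadjusted p under 0.05), with summed intensities of 5145 to 7034 on day 5 and 2604 to 2657 on day 4. Of 8 non-cycling markers 7 were higher (median 0.26, 1 with an unadjusted p under 0.05), with sums of 6906 to 8104 on day 5 and 5979 to 6329 on day 4. Of 6 feeder fibroblast markers 4 were higher (median 0.33, 2 with an unadjusted p under 0.05). Summed with the listed feeder markers too dim to be tested, 8 in all, they reached 1736 to 2205 on day 5 and 1624 to 1721 on day 4. Of 7 streak markers 6 were lower (median -0.35) and of 9 pluripotency markers 5 (median -0.08, 1 called). Their part in the lower mitotic levels was not tested.

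**Figure D3:**
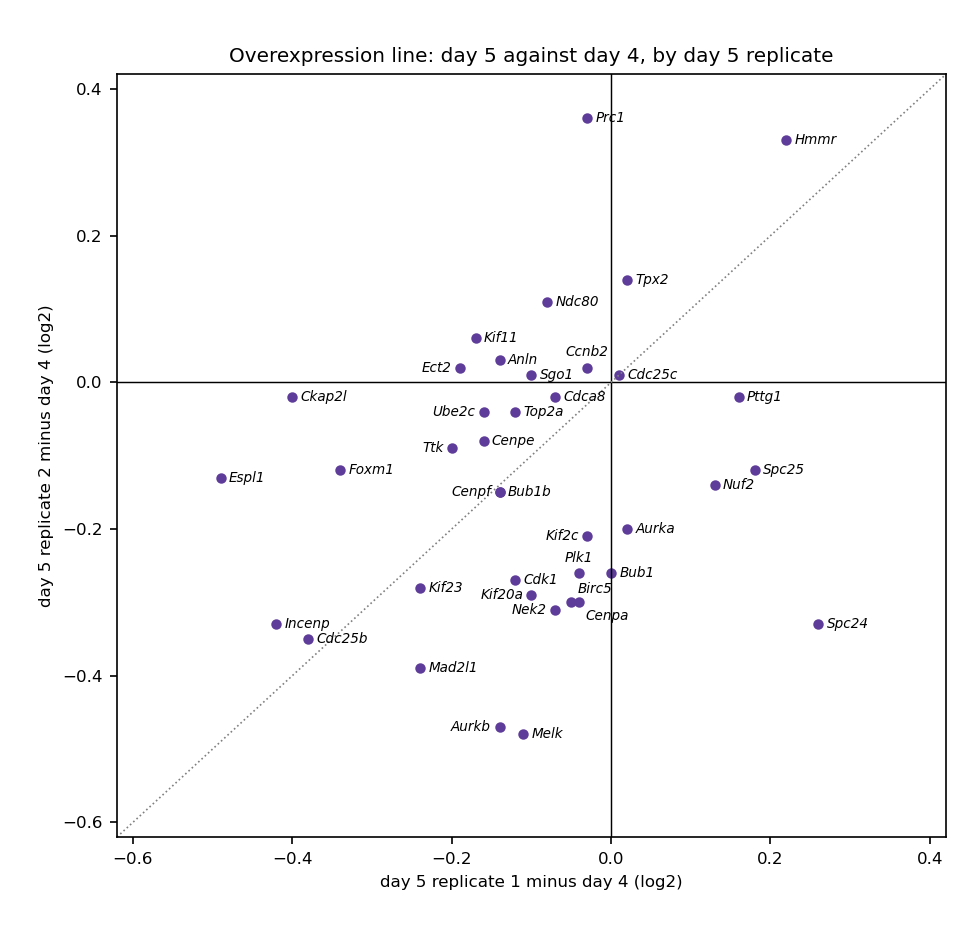
Each point is a gene of the overexpression line, with the mean log2 level of day 5 replicate 1 (horizontal axis) and of day 5 replicate 2 (vertical axis) minus the mean of the 2 day 4 arrays, and the dotted line marks equal differences. Incenp, Cdc25b, Kif23 and Mad2l1 lie near that line in the lower left, while Melk and Aurkb are low mainly in replicate 2, Espl1 and Ckap2l mainly in replicate 1, and Spc24 takes opposite signs (0.26 and -0.33).

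Between the lines on day 4, with knockdown minus overexpression baselines, 0 of 39 genes were called (0.307% of all genes tested), 16 were higher and 23 lower (53.1% of all genes higher and 46.9% lower), and the median was -0.04. The 95% interval stayed within 1.5-fold for 34 of 39 (62% of all). The overexpression side rests on replicate 3 alone. Mad2l1 alone had an unadjusted limma p under 0.05, in the lower direction (1 of 39, against 6.02% of all genes; 0 in the higher, against 5.6%). It stood at 11.59, 11.52 and 11.60 in knockdown dox arrays and 11.48, 11.33 and 11.55 in knockdown controls, against 11.72 and 11.78 in the overexpression dox and control arrays (-0.33 ± 0.12; limma adjusted p = 0.314). All 6 knockdown values lay below both others, and the p was above 0.05 without either overexpression array. Ect2 stood at 11.15, 11.34 and 11.17 with dox and 11.25, 11.64 and 11.21 without in the knockdown line, against 11.10 and 11.04 in the overexpression line (0.30 ± 0.16; limma adjusted p = 0.523). Ect2, Anln and Ttk did not overlap in the higher direction (3 of 39; 8.41% of all genes) and Mad2l1, Aurkb and Kif20a in the lower (3 of 39; 8.11%).

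Gmnn had -0.11 ± 0.17 between the lines. Among the other named genes, Ccnb2 had 0.18 ± 0.13 and the checkpoint kinase Bub1b 0.14 ± 0.11, while Aurkb had -0.20 ± 0.14 and Incenp -0.18 ± 0.13. The 7 kinetochore genes lay between -0.13 and 0.00. Of the 116 further genes 4 were higher and 7 lower at an unadjusted limma p under 0.05 (5.6% and 6.02% of all genes). Among them were Mybl2, the B-Myb factor that acts on CHR promoters with MuvB, at 0.92 ± 0.34 (adjusted p = 0.342) and Cdc25a at -0.33 ± 0.09 (0.206). Marker levels differed between the lines beside these values. All 7 primitive streak markers were lower in the knockdown line (median -2.27, 7 with an unadjusted p under 0.05, 2 called), with summed intensities of 1099 to 6607 in that line and 10110 to 11555 in the day 4 overexpression arrays. Of 9 pluripotency markers 7 were higher (median 0.69, 3 with an unadjusted p under 0.05), and of 8 endoderm markers 7 (median 0.57, 3 with an unadjusted p under 0.05). Of 8 non-cycling markers 5 were higher (median 0.10), while Gas1, a growth arrest gene on that list, was called lower (-1.59 ± 0.21, limma adjusted p = 0.0176). Of 7 mesoderm and blood markers 4 were lower (median -0.33), and 1 of them, Kdr, was called (-2.43 ± 0.34, limma adjusted p = 0.0203). Their part in the mitotic levels was not tested.

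Counting both directions, replicates 2 and 1 differed in these genes about as often as in all genes tested. On day 5 of the overexpression line both arrays of replicate 2 lay above both of replicate 1 for 12 genes (30.8%, against 34.5% of all genes). They lay below for 16 (41%, against 32.4%). The 12 higher genes were Foxm1, Ndc80, Incenp, Kif11, Tpx2, Prc1, Hmmr, Ckap2l, Ect2, Anln, Espl1 and Sgo1, which guards centromeric cohesion. The 16 lower genes were Cdk1, Plk1, Aurka, Nek2 and Melk of the entry kinases, Bub1 and Mad2l1, Cenpa, Nuf2, Spc24 and Spc25, Aurkb and Birc5, Kif20a, Kif2c and Pttg1. By role, 5 of 9 entry genes and 4 of 7 kinetochore genes were lower, while 5 of 8 spindle genes and 2 of 2 cytokinesis genes were higher. In the knockdown line replicate 2 lay above replicate 1 for 18 genes (46.2%, against 27.3% of all) and below for 6 (15.4%, against 28.8%). There the group leaned toward higher levels in replicate 2.

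The knockdown line's split ran the same way in part. Of the 12 genes higher in replicate 2 of the overexpression line, 10 were also higher in the knockdown line (83.3% of the 12 and 55.6% of its 18; over all genes 49.8% and 63%). Of the 16 lower, 6 were also lower (37.5% of the 16 and 100% of its 6; over all genes 49.3% and 55.5%). These 6 were Plk1, Nek2, Cenpa, the centromeric histone, Nuf2, Spc24 and Pttg1. The labels do not say what arrays of equal number share across lines, and the split has no test of its own.

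Spc24 showed the widest split. In the overexpression line it stood at 9.33 with dox and 9.40 without in replicate 2, against 9.92 and 9.99 in replicate 1, and in the knockdown line at 9.26 and 9.51 against 9.79 and 9.85. Prc1 ran the other way, at 10.67 and 10.71 in replicate 2 against 10.36 and 10.24 in replicate 1 of the overexpression line, and at 10.61 and 10.92 against 10.50 and 10.46 in the knockdown line. Replicate 2 did not overlap replicate 1 for either gene in either line. Espl1 stood at 10.04 and 9.94 in replicate 2 against 9.66 and 9.60 in replicate 1 of the overexpression line, and at 10.35 and 10.30 against 10.00 and 10.09 in the knockdown line. Melk stood at 10.35 and 10.37 in replicate 2 against 10.73 and 10.72 in replicate 1 of the overexpression line, but its knockdown values overlapped (10.81 and 10.67 against 10.85 and 10.69).

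How many genes fell on each side depended on the scaling. Centring arrays on their medians moved the replicate difference of all genes in the overexpression line to 0.12 from 0.00 after quantile normalization, with 25 members then higher and 3 lower in replicate 2 (Cenpa, Melk and Spc24; 49.1% and 18.8% of all genes). The values as deposited gave 17 and 16 (29.2% and 41.1% of all genes, whose median was -0.07). In the knockdown line the deposited and the median-centred values each gave 19 higher and 4 lower. Over all genes these shares were 31.3% and 24.8% as deposited and 28.9% and 25.7% with median centring.

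**Figure D4:**
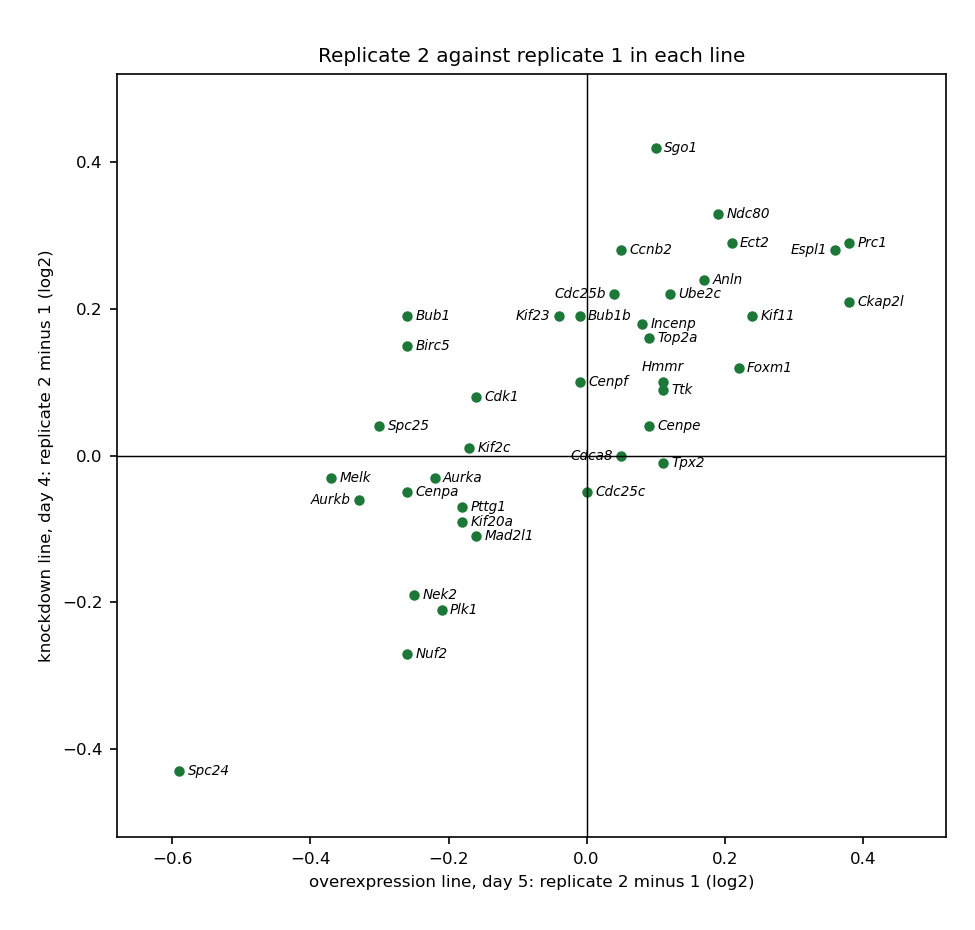
Each point is a gene, with the mean log2 level of replicate 2 minus that of replicate 1 over dox and control arrays on day 5 of the overexpression line (horizontal axis) and on day 4 of the knockdown line (vertical axis). Spc24, Nuf2, Plk1 and Nek2 lie in the lower left, Prc1, Espl1, Ckap2l, Ect2 and Ndc80 in the upper right, and Bub1 and Birc5 in the upper left (-0.26 each on the horizontal axis, 0.19 and 0.15 on the vertical).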

How the data were processed

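Total RNA of 12 samples was hybridised to Affymetrix mouse gene arrays, per the labels' protocols. Each probe set has 1 deposited intensity per array, on a linear scale. How the authors summarised and normalized the probes was not stated in the sources used here. Of 35512 probe sets, the platform annotation names 1 gene for 21789, several for 1621 and none for 12102, and the brightest of a gene's own probe sets was used. Values were taken as log2(intensity + 1). Array medians spanned 0.324 (7.193 to 7.517), above a set limit of 0.1, so arrays were quantile normalized. Fold changes on this scale understate those of dim genes. Genes below the 20th percentile of mean level (log2 6.46) were not tested. One limma 3.58.1 model (R 4.3.3, lmFit and eBayes) over all 12 arrays held separate baselines for knockdown day 4 and overexpression days 4 and 5 plus 1 dox effect per line (7 residual and 3.5 prior degrees of freedom), and gave 5 contrasts. The steps were tested on simulated data.

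The genes, the lists of 117 further G2 and mitosis genes (116 tested) and of cell type markers, and the motifs were chosen with earlier results of these data known. Genes named with values are Gmnn, members with an unadjusted p under 0.05 and the 3 smallest p in each direction of a contrast, the 4 most and 4 least variable members, and central members of each role. Others named, in the replicate comparison and under single alternatives, were chosen after their values were seen. Alternatives were a replicate block, other scalings, pseudocounts, filters, probe set rules and fits, and arrays left out, of which leaving out both arrays of a replicate was chosen after seeing the data.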

Additional observations from a re-analysis of the deposited data

How the results depend on the processing

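Over 867 settings of single genes, 7 turned the sign and 8 gained a call, all 8 with array weights. The sign turned for Gmnn between days, -0.03 in the main setting: 0.02 with arrays centred on their medians, -0.16 to 0.07 leaving out 1 array at a time (0.07, 0.01 and 0.07 without the day 4 control, day 5 control replicate 2 and day 5 dox replicate 2) and 0.14 without day 5 replicate 2. It also turned for Gmnn between lines (0.02 without the day 4 overexpression control, against -0.11, and -0.19 to 0.02 leaving out 1 array) and for Prc1 between days (-0.03 without day 5 replicate 2). With arrays centred on their medians, the group's median moved to 0.14 for dox in the knockdown line, 0.15 for the difference of dox effects, -0.06 for day and -0.10 between lines. The medians of all genes were then 0.07, 0.07, 0.03 and -0.02 in the same order. Without both arrays of knockdown replicate 2 the knockdown median was 0.08, and leaving out 1 array at a time it was 0.01 to 0.07. Members with all day 5 arrays below day 4 were 15 in the main setting (15.1% of all genes) and 6 with median centring (8.94%). They were 24 without day 5 replicate 1 (31% of all genes) and 23 without day 5 replicate 2 (29.5%). Both of these settings leave fewer arrays to separate. Leaving out 1 array they were 15 to 20, for which no share over all genes was taken. Members called were 8 between days and 1 between lines (Mad2l1) with array weights and 0 otherwise. Genes called between days, 89 of all tested, were 33 with median centring, 27 with no filter, 183 with trend and robust, 2567 with array weights, 19 with the line alone, 350 without day 5 replicate 1, 3 without day 5 replicate 2 and 0 to 148 leaving out 1 array. Between lines, 49 became 30 as deposited, 29 with no filter, 1170 with array weights and 0 to 80 leaving out 1 array. For dox in the overexpression line, 1 became 201 with array weights, 0 with the line alone or without the day 4 arrays, and 0 to 1 leaving out 1 array. In the knockdown line, 1 became 0 with the line alone or without replicate 3. The causes of these changes were not tested beyond the arrays lost.

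Same-numbered arrays deviated together in knockdown pairs 1 and 2 (r = 0.60 and 0.44 across genes) and on day 5 of the overexpression line (0.79), but hardly in knockdown pair 3 (0.05). The highest correlation with an array of another number was 0.02 for each knockdown pair, so pair 3 hardly stood apart. Deviations were taken from group means and cancel within a group, which can by itself lower correlations between different numbers. The labels do not say what a number marks, so the main model did not pair the samples by number. With a replicate block within each line, 0 members were called for dox in either line or for the difference, and the medians stayed at 0.02, 0.00 and 0.03. Genes with an unadjusted p under 0.05 were 1941 in place of 599 in the knockdown line, 572 in place of 149 in the overexpression line and 1384 in place of 340 for the difference. Members among them were Birc5 (limma adjusted p = 0.367) and Ckap2l (0.411) in the knockdown line, both lower, and Birc5 for the difference.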
